A study of Mus musculus with 12 samples.

Results

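The 7 ADAM genes Adam8, Adam9, Adam10, Adam12, Adam15, Adam17 and Adam19 and the 2 iRhom genes Rhbdf1 and Rhbdf2 were followed by symbol in a table of 29956 named genes, and all 9 were found. ADAMs of this kind are membrane-anchored zinc proteases that cut the outer part of other membrane proteins free, a step called ectodomain shedding. The iRhoms are inactive relatives of the rhomboid proteases that carry ADAM17 out of the endoplasmic reticulum and stay bound to it at the cell surface. In skin, shedding releases the ligands of the epidermal growth factor (EGF) receptor, which drive keratinocyte migration, and in leukocytes it releases tumour necrosis factor.

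RNA was sequenced from back skin of diabetic mice. All carried the genotype B6.BKS(D)-Leprdb/db, a leptin receptor mutation that leads to obesity and high blood glucose. Age and sex are not stated in the labels. Every mouse had full-thickness punch wounds, and skin was taken on day 3. Wounds had received Alcaligenes faecalis (4 mice), Staphylococcus aureus (4 mice) or the vehicle, phosphate-buffered saline with 10% glycerol (4 mice), so all 3 groups share the mutation and the wound. The question was how the messenger RNA of the sheddases and of the genes around them differed between these wounds. Messenger RNA says nothing of how much protein reached the cell surface or was active.

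Libraries held 38.4 to 71.3 M estimated counts (M for mega). Levels are given as CPM, counts per M of the scaled library, and each member reached at least 31.4 CPM in every library. All 8 keratinocyte markers were detected in every library. Vehicle replicate 3 stood apart, with the lowest summed neutrophil markers of the 12 libraries (692 CPM, the other vehicle libraries 2173 to 8431 CPM) and the highest summed adipocyte markers (6636 CPM, the other vehicle libraries 1642 to 2164 CPM). The edgeR calls of members and named list genes against vehicle are therefore also given without it, and those of cell type markers are not. Because whole skin was sequenced, fewer cells of a type and less RNA per cell cannot be told apart.

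Most calls were made between the 2 bacteria. Adam8 and Adam19 were lower, and Adam9 was higher, in A. faecalis wounds than in S. aureus wounds, 3 of 9 members where 12.7% of all genes tested were called at an adjusted p under 0.05. Against vehicle, Adam19 rose with S. aureus, 1 of 9 members beside 6.84% of all genes, and 0 of 9 were called with A. faecalis beside 0.011%. Adam10 and Adam15 were not called in any of the 3 comparisons, and their 95% intervals lay within -0.30 and 0.32 on the log2 scale. The plot of levels by library shows all of these values.

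**Figure D1:**
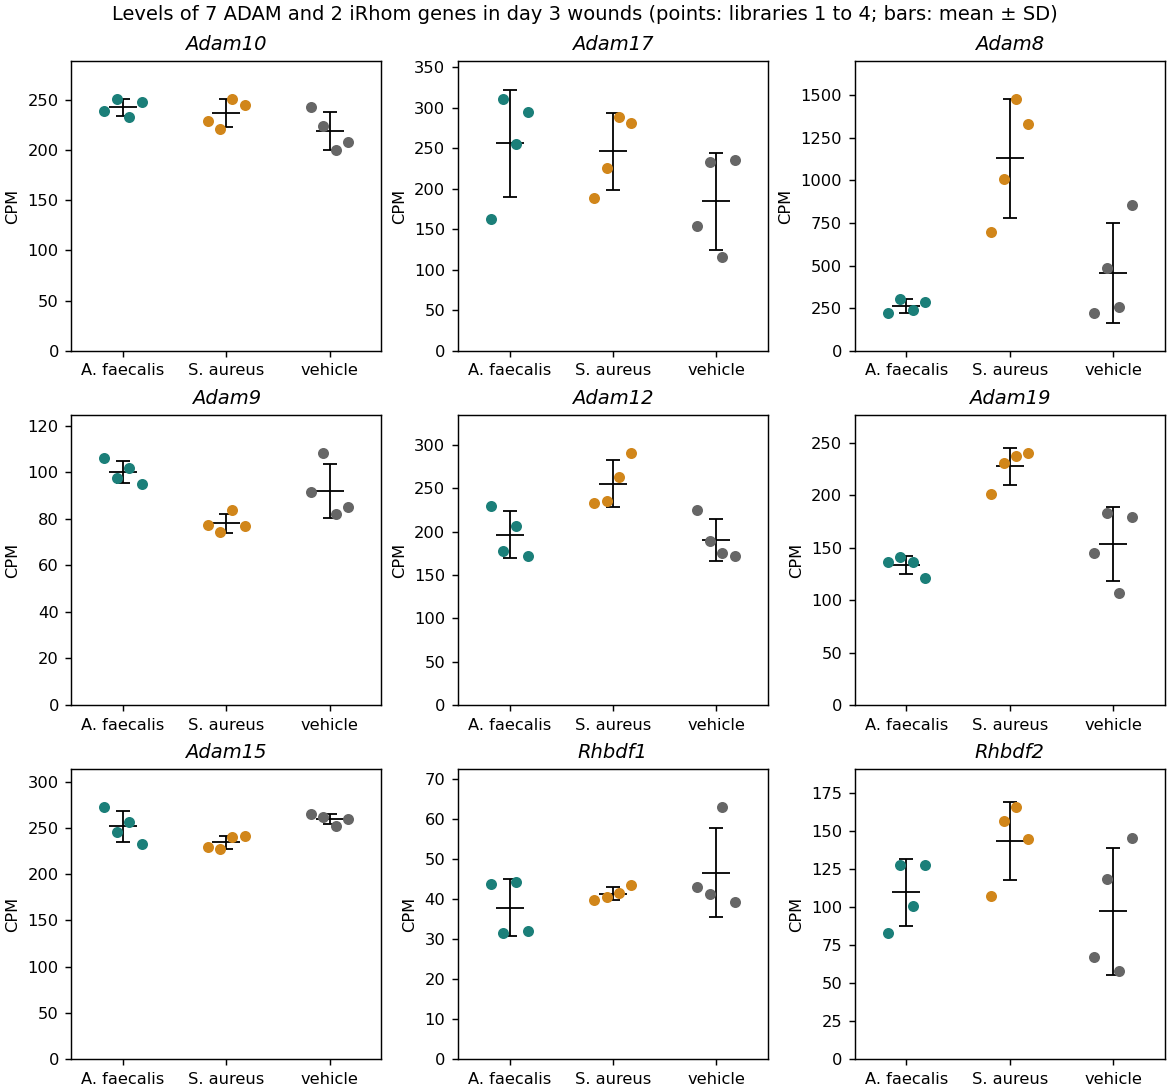
Level in CPM (vertical axis, from 0) of each of the 9 genes in A. faecalis, S. aureus and vehicle wounds, with 1 point per library and bars for mean ± SD (n = 4). The S. aureus points of Adam8 (698 to 1479 CPM) and Adam19 (201 to 240 CPM) lie above every A. faecalis point (223 to 304 and 121 to 141 CPM), while Adam10 and Adam15 are level.

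The RefSeq promoter windows of the genes that differed most are shown here because the data bear on their transcript levels. Windows run from 250 bases before to 50 bases after an annotated start, and 5 of the 9 members have one in the table (build GRCm38.p6). Adam8 is read from the minus strand of chr7:139992513-139992812 and Adam19 from the plus strand of chr11:46054252-46054551, the most upstream of its 3 listed starts. Capitals mark a match, on either strand, to the letters of AP-1 (TGANTCA), NF-kB (GGGA and CC with any 4 bases between), Sp1 (GGGCGG) or PU.1 (GAGGAA).
Adam8: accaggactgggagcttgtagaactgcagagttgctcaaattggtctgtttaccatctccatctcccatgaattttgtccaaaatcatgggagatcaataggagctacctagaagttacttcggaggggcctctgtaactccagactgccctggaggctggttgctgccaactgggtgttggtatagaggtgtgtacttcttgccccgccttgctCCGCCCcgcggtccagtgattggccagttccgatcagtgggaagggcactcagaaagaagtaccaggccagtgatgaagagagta
Adam19: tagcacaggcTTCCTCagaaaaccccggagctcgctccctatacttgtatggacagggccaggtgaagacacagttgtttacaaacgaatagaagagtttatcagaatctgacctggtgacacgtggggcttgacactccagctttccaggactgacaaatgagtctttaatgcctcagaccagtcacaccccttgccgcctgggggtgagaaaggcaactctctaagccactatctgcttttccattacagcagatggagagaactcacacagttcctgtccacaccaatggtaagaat
The capitals in Adam8 are 1 Sp1 match and those in Adam19 are 1 PU.1 match, and no matches overlap. Of 32851 windows of this length, 7.81% held AP-1 letters, 20.7% NF-kB, 35.7% Sp1 and 28.3% PU.1. A match is a description of these letters only, and which start was used in the wound is not known.

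Adam8 encodes a protease of neutrophils, macrophages and other leukocytes that can activate itself without a convertase. In A. faecalis wounds it stood at 223, 304, 239 and 287 CPM in replicates 1 to 4, in S. aureus wounds at 698, 1006, 1479 and 1332 CPM, and in vehicle wounds at 220, 488, 259 and 858 CPM. The A. faecalis libraries were tightly grouped and all below the S. aureus ones, whereas the vehicle libraries spread from the A. faecalis level to above S. aureus replicate 1. Group means were 263 ± 38.6 CPM with A. faecalis, 1129 ± 348 CPM in S. aureus wounds and 456 ± 293 CPM with vehicle (SD, n = 4). Between A. faecalis and S. aureus the log2 fold change was -2.10 (SE 0.395, 95% interval -2.96 to -1.24), with an adjusted p of 0.0063 by the quasi-likelihood test of edgeR, adjusted after Benjamini and Hochberg. That call was made in each of the 20 alternative fits (adjusted p up to 0.0253).

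Against vehicle Adam8 was less certain. With S. aureus its log2 fold change was 1.31 (SE 0.385, adjusted p = 0.0617 by edgeR), short of the threshold. It passed under DESeq2 (adjusted p = 0.00684) and limma-voom (0.0429), and it passed in edgeR without vehicle replicate 4, the highest vehicle library (log2 fold change 1.82, adjusted p = 0.0134). It also passed without S. aureus replicate 1 (0.047), and it did not pass without vehicle replicate 3 (log2 fold change 1.13, adjusted p = 0.114). With A. faecalis the log2 fold change was -0.79 (SE 0.382, 95% interval -1.63 to 0.04, adjusted p = 0.652 by edgeR), and it ranged from -1.01 to -0.29 when single libraries were left out, the last of these without vehicle replicate 4.

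Adam8 was set beside 11 neutrophil markers. Between A. faecalis and S. aureus 0 of them had a positive log2 fold change and 6 were called lower, beside 7.62% of all genes. With S. aureus against vehicle 11 were positive and 1 was called higher, beside 3.87%. With A. faecalis against vehicle 4 were positive, among them Csf3r (0.64), and 0 were called by edgeR. The 11 markers were all detected in every library and summed to 1670 to 3784 CPM with A. faecalis, 9076 to 14246 CPM in S. aureus wounds and 692 to 8431 CPM with vehicle. Mature neutrophil markers such as S100a8, S100a9, Csf3r and Cxcr2 carried most of the sum, and keratinocytes can make the first pair too. Per 1000 CPM of this sum, Adam8 stood at 78.2 to 133 with A. faecalis, 76.9 to 125 with S. aureus and 93.2 to 102 with vehicle, apart from vehicle replicate 3 at 375. These ranges overlap, while those of Adam8 itself in A. faecalis and S. aureus wounds do not. Against the summed 11 monocyte and macrophage markers, which share Csf1r and Cd163 with the list of shed proteins, Adam8 stood at 31.4 to 35.2 per 1000 CPM with A. faecalis, 135 to 240 with S. aureus and 39.9 to 115 with vehicle. The part of either cell type in the Adam8 difference was not tested.

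**Figure D2:**
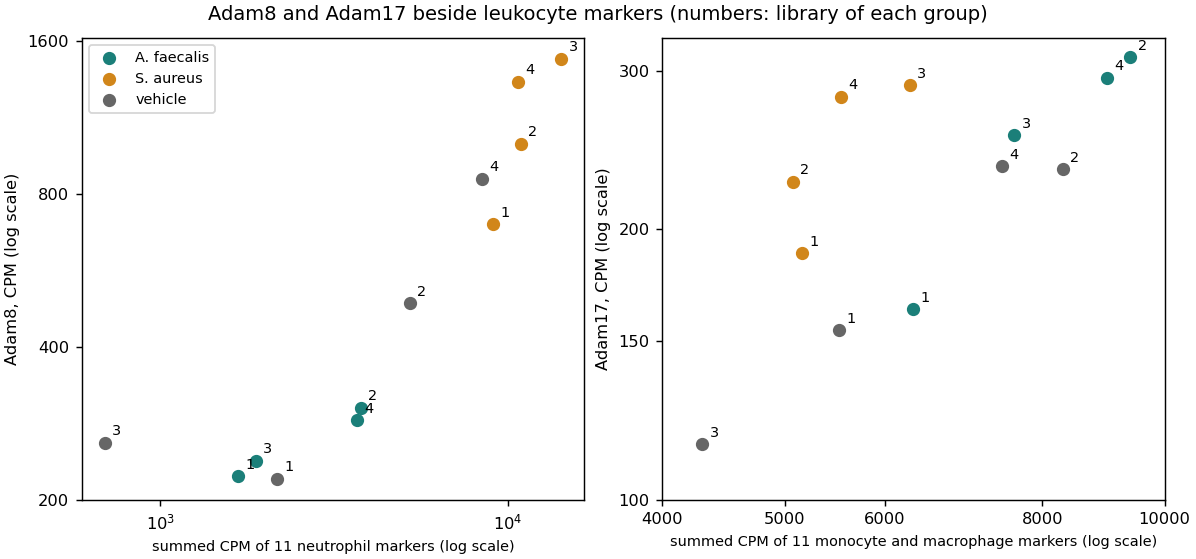
Left, Adam8 in CPM against the summed CPM of 11 neutrophil markers; right, Adam17 in CPM against the summed CPM of 11 monocyte and macrophage markers; all axes are logarithmic, and each point is a library numbered within its group. Adam8 follows the neutrophil sum except in vehicle replicate 3 (259 CPM beside a sum of 692 CPM), and the S. aureus points of Adam17 lie above A. faecalis and vehicle points of similar marker sums.

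Adam19, meltrin beta, is a protease of developing heart and nerve that can process neuregulins and is also made by dendritic cells and fibroblasts. It stood at 136, 141, 136 and 121 CPM in A. faecalis wounds, 201, 231, 238 and 240 CPM in S. aureus wounds and 145, 183, 107 and 180 CPM in vehicle wounds. Every S. aureus library lay above every other library, and the A. faecalis range lay inside the vehicle range. Against vehicle, the S. aureus wounds differed by 0.57 in log2 fold change (SE 0.147; edgeR gave an adjusted p of 0.0413), and by 0.45 (adjusted p = 0.0374) without vehicle replicate 3. Leaving out vehicle replicate 1 ended this call, as did leaving out any single one of replicates 2, 3 and 4 of either bacterium (largest adjusted p 0.111) or fitting the pair of groups alone (0.103). Between A. faecalis and S. aureus the log2 fold change was -0.77 (SE 0.147, adjusted p = 0.00673), and it was called in each of the 20 alternative fits (adjusted p up to 0.025).

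Adam9, meltrin gamma, is a widely expressed protease found in keratinocytes and fibroblasts. It went the other way, at 106, 97.6, 102 and 95.2 CPM with A. faecalis, 77.3, 74.2, 83.6 and 76.9 CPM in S. aureus wounds and 91.7, 108, 82.3 and 85.1 CPM with vehicle. The A. faecalis libraries all lay above the S. aureus ones, and the vehicle libraries overlapped both. The log2 fold change of A. faecalis over S. aureus was 0.36 (SE 0.0888, adjusted p = 0.0216 by edgeR). The call was lost, at adjusted p of 0.0554 to 0.0689, when replicate 1 or 3 of A. faecalis or replicate 1, 2 or 4 of S. aureus was left out. Against vehicle, Adam9 had log2 fold changes of 0.13 with A. faecalis (adjusted p = 0.732) and -0.24 with S. aureus (0.115).

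Adam12, meltrin alpha, is a protease of mesenchymal cells, regenerating muscle and fibrotic skin. It stood at 230, 177, 207 and 172 CPM with A. faecalis, 233, 235, 264 and 291 CPM in S. aureus wounds and 225, 189, 176 and 172 CPM with vehicle. Every S. aureus library was above every other library, by a small margin over A. faecalis replicate 1 and vehicle replicate 1. Its log2 fold change with S. aureus against vehicle was 0.43 (SE 0.123, adjusted p = 0.0573 by edgeR, 0.0113 by DESeq2). Between A. faecalis and S. aureus it was -0.38 (SE 0.123, adjusted p = 0.0632 by edgeR, 0.0247 by DESeq2). In edgeR the first of these passed without vehicle replicate 1 (0.0486) or A. faecalis replicate 1 (0.0487), and the second without A. faecalis replicate 1 (0.0377). Without vehicle replicate 3 the first was 0.41 (adjusted p = 0.108). Summed markers of fibroblasts overlapped between the groups, at 18136 to 21784 CPM with A. faecalis, 19666 to 24813 CPM in S. aureus wounds and 18712 to 30306 CPM with vehicle. Collagen genes made up most of that sum. Of the 8 markers, 4 had a positive log2 fold change with S. aureus against vehicle (median 0.01). Pdgfra and Thy1 rose (log2 fold changes 0.46 and 0.49, adjusted p = 0.0389 and 0.0334 by edgeR), beside 3.87% of all genes. Dpt, uneven with vehicle (148 ± 57.7 CPM), fell (-0.97, adjusted p = 0.0472 by edgeR), beside 2.97% of all genes. Pdgfra was lower with A. faecalis than with S. aureus (-0.50, adjusted p = 0.0172 by edgeR), beside 7.62% of all genes. These 3 markers, Pdgfra, Thy1 and Dpt, were named after their values were seen, and their part in the Adam12 values was not tested.

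ADAM17, the tumour necrosis factor converting enzyme, is the main sheddase of several EGF receptor ligands. Adam17 stood at 163, 311, 255 and 295 CPM with A. faecalis, 188, 226, 289 and 281 CPM in S. aureus wounds and 154, 233, 115 and 235 CPM with vehicle. Libraries of 1 group differed up to 2.04-fold, and the groups overlapped. The log2 fold change against vehicle was 0.47 with A. faecalis (SE 0.255, 95% interval -0.09 to 1.03, adjusted p = 0.682 by edgeR) and 0.42 with S. aureus (SE 0.255, 95% interval -0.14 to 0.97, adjusted p = 0.322). Without vehicle replicate 3, the lowest library, these values were 0.31 and 0.27. A. faecalis and S. aureus wounds had nearly the same mean, with a log2 fold change of 0.06 between them and an interval of -0.50 to 0.61.

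Rhbdf2 encodes iRhom2, the partner of ADAM17 in leukocytes, whose mutation in humans causes thickened skin of palms and soles. It stood at 83.0, 128, 101 and 128 CPM with A. faecalis, 107, 157, 166 and 145 CPM in S. aureus wounds and 67.3, 119, 58.0 and 146 CPM with vehicle. In each group replicate 1 was low for both Rhbdf2 and Adam17, and in the vehicle group replicate 3 was lower still. The ratio of Adam17 to Rhbdf2 within a library was 1.97 to 2.52 with A. faecalis, 1.44 to 1.93 with S. aureus and 1.61 to 2.29 with vehicle. The log2 fold change of Rhbdf2 was 0.17 with A. faecalis (SE 0.273, adjusted p = 0.886) and 0.56 with S. aureus (SE 0.274, 95% interval -0.04 to 1.16, adjusted p = 0.211 by edgeR) against vehicle. Without vehicle replicate 3, the lowest library, these values were 0.0025 and 0.40. Between A. faecalis and S. aureus it was -0.39 (adjusted p = 0.388).

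Adam17 and Rhbdf2 were also set beside the markers of monocytes and macrophages. These 11 markers summed to 6317 to 9396 CPM with A. faecalis, 5079 to 6283 CPM in S. aureus wounds and 4304 to 8305 CPM with vehicle. Per 1000 CPM of that sum, Adam17 stood at 25.8 to 33.5 with A. faecalis, 36.4 to 50.6 with S. aureus and 26.8 to 31.6 with vehicle. Rhbdf2 stood at 13.1 to 14.2 with A. faecalis, 20.8 to 30.9 in the S. aureus libraries and 12.2 to 19.6 with vehicle. On this scale the S. aureus libraries were above all others for both genes, while Adam17 itself had a log2 fold change of 0.06 between A. faecalis and S. aureus. The part of these cells in the levels was not tested.

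Rhbdf1 encodes iRhom1, which serves ADAM17 outside the blood cells. It stood at 31.4 to 44.1 CPM with A. faecalis, 39.8 to 43.5 CPM in S. aureus wounds and 39.2 to 63.0 CPM with vehicle. The groups overlapped, and the highest value belonged to vehicle replicate 3. Its log2 fold change against vehicle was -0.30 with A. faecalis (adjusted p = 0.679 by edgeR) and -0.17 with S. aureus (0.525), and without that library these values were -0.11 and 0.03.

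ADAM10 is the sheddase of Notch receptors, E-cadherin and betacellulin. Adam10 stood at 242 ± 8.29 CPM with A. faecalis, 236 ± 13.9 CPM in S. aureus wounds and 219 ± 18.7 CPM with vehicle (SD, n = 4), and its 12 libraries spanned only 200 to 251 CPM. The 95% interval of its log2 fold change was -0.03 to 0.32 for A. faecalis against vehicle, -0.06 to 0.29 for S. aureus against vehicle and -0.14 to 0.21 between A. faecalis and S. aureus. Adam15, a protease of epithelium and endothelium that binds integrins, was as level, at 252 ± 16.8 CPM with A. faecalis, 235 ± 7.01 CPM in S. aureus wounds and 260 ± 5.19 CPM with vehicle. Its S. aureus libraries (228 to 241 CPM) all lay below the vehicle libraries (252 to 265 CPM), a log2 fold change of -0.15 that missed the threshold (adjusted p = 0.201 by edgeR). Over the 12 libraries the standard deviation of log2 CPM was 0.09 for Adam15 and 0.11 for Adam10, against 1.05 for Adam8.

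Counted over the members, A. faecalis against vehicle gave 0 called genes of 9 by edgeR, DESeq2 and limma-voom, and 0 with an unadjusted p under 0.05. Of the 18218 genes tested 0.011% were called, 0.00549% in each direction, and 7.68% had such a p. No member's groups were without overlap, beside 4.05% of all genes. All 9 members passed the filter on low counts. S. aureus against vehicle gave 1 called member, higher with S. aureus, beside 6.84% of all genes (3.87% higher and 2.97% lower), and 4 members with an unadjusted p under 0.05 beside 27.0%. Groups did not overlap in 3 members (Adam12, Adam19 and Adam15), beside 15.1% of all genes. A. faecalis against S. aureus gave 3 called members, 1 higher and 2 lower, beside 12.7% of all genes (5.06% higher and 7.62% lower), and the 4 members without overlap (Adam8, Adam9, Adam12 and Adam19; 23.3% of all genes) also had an unadjusted p under 0.05 (28.2%). The median log2 fold change of the 9 was 0.04, 0.42 and -0.13 in these comparisons, and that of all genes was -0.03, -0.04 and 0.02. Both vehicle comparisons share the vehicle libraries.

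**Figure D3:**
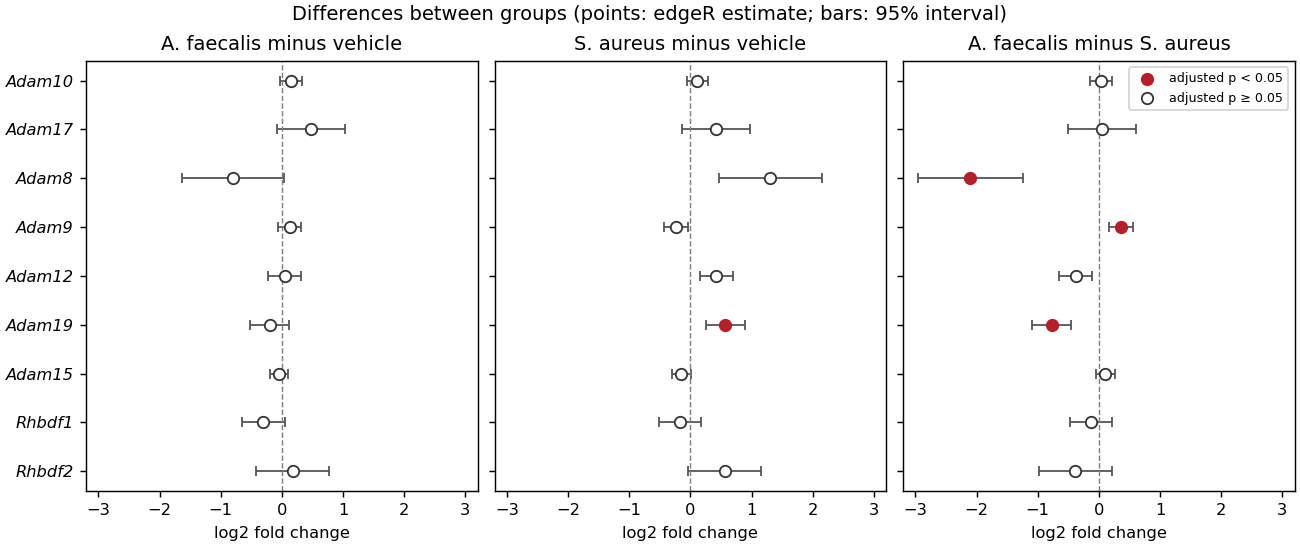
Log2 fold change (horizontal axis) of each member in the 3 comparisons, with 95% intervals from edgeR; filled points have an adjusted p under 0.05. No point is filled for A. faecalis minus vehicle, Adam19 alone is filled for S. aureus minus vehicle, and Adam8, Adam9 and Adam19 are filled for A. faecalis minus S. aureus.

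Levels of different genes were compared per kilobase of the longest coding transcript in GENCODE M21. Over the 12 libraries Adam8 had the highest level per length (198 ± 146 CPM per kb), followed by Adam15 (83.6 ± 4.97), Adam17 (51.2 ± 13.9) and Adam10 (50.6 ± 3.63). Then came Rhbdf2 (30.4 ± 9.02), Adam12 (27.9 ± 5.06), Adam19 (26.9 ± 7.42), Adam9 (22.3 ± 2.92) and Rhbdf1 (14.2 ± 2.67 CPM per kb; SD, n = 12 libraries of 3 groups). These spreads overlapped for Adam17 and Adam10, Rhbdf2 and Adam12, Adam12 and Adam19, and Adam19 and Adam9, but they include the differences between groups. Within groups Adam19 and Adam9 changed order. Adam19 stood at 35.7 ± 2.81 and Adam9 at 19.3 ± 0.989 CPM per kb with S. aureus. With A. faecalis they stood at 20.9 ± 1.32 and 24.8 ± 1.18 CPM per kb (SD, n = 4). With the median coding transcript as length the order changed, with Adam12 at 103, Adam10 at 89.1 and Rhbdf1 at 69.6 CPM per kb. The lead of Adam8 depended on the wound. Per kb it stood at 84.4 ± 12.4 CPM with A. faecalis, next to Adam15 at 84.6 ± 5.65 CPM, and at 362 ± 112 CPM with S. aureus, where Adam15 was at 78.8 ± 2.36 CPM (SD, n = 4).

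Among 15855 other tested genes, those with the most similar profiles were found by the root mean square difference of centred log2 CPM over the 12 libraries, given in log2 units. For Adam8 they were Rufy4 (0.17), Thbs1 (0.20), which encodes the matrix protein thrombospondin-1, and Rasa2 (0.22). Rhbdf2 was nearest to Coro1a (0.09), an actin regulator of leukocytes, Lmbr1l (0.10) and Atp8b4 (0.10). Adam17 was nearest to Spidr, Pik3cg, a lipid kinase subunit of leukocytes, and Lyn, a tyrosine kinase of myeloid and B cells (0.14 each). The level Adam10 was nearest to Bclaf1 (0.04), Uggt1 (0.04) and Rfwd3 (0.05). Libraries of a group share their treatment, and the marker sums also differ between libraries, so these likenesses are descriptions.

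The partners and inhibitors of the sheddases were followed as a list of 20 genes, of which 19 passed the filter. For A. faecalis against vehicle 0 were called by edgeR, DESeq2 or limma-voom, and 0 had an unadjusted p under 0.05; 2 rose and 1 fell with S. aureus against vehicle, and 1 was higher and 2 were lower in A. faecalis than in S. aureus wounds. Over all genes 0.011% were called by edgeR for A. faecalis against vehicle and 7.68% had an unadjusted p under 0.05. With S. aureus against vehicle 3.87% of all genes rose and 2.97% fell, and 5.06% were higher and 7.62% lower in A. faecalis than in S. aureus wounds. The medians of the list were -0.15, -0.08 and -0.02. Pcsk5, a convertase of the furin family, which removes ADAM prodomains, stood at 86.6 ± 1.22 CPM with A. faecalis, 165 ± 24.9 CPM in S. aureus wounds and 91.3 ± 32 CPM with vehicle (SD, n = 4). Its log2 fold change was 0.85 with S. aureus against vehicle (adjusted p = 0.0487 by edgeR) and -0.93 between A. faecalis and S. aureus (0.0231). The first call was lost in 14 of 20 alternatives, among them each library left out except vehicle replicates 2 and 3 (adjusted p up to 0.129), and the second without A. faecalis replicates 2, 3 or 4 or S. aureus replicates 3 or 4 (up to 0.0655). Nrd1, nardilysin, a peptidase that enhances shedding by ADAM17, was at 177 ± 15.3, 254 ± 49 and 167 ± 30.1 CPM in A. faecalis, S. aureus and vehicle wounds. Nrd1 had a log2 fold change of 0.61 with S. aureus against vehicle (adjusted p = 0.0395 by edgeR) and -0.52 between A. faecalis and S. aureus (0.0458). The first call was lost without vehicle replicates 1 or 3 or replicates 2, 3 or 4 of either bacterium (up to 0.12), and with only the 2 groups (0.0973). The second was lost without vehicle replicate 2, any A. faecalis library or S. aureus replicates 2, 3 or 4 (up to 0.137). It was also lost under limma-voom (0.055), without the low-count filter (0.0564) and with upper-quartile scaling (0.0518).

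Timp3, the tissue inhibitor that blocks ADAM17 and ADAM10, averaged 175 ± 32.3 CPM with A. faecalis, 133 ± 25.6 CPM in S. aureus wounds and 257 ± 147 CPM with vehicle. The vehicle mean rested on replicate 3 at 468 CPM, where the other vehicle libraries were at 149 to 248 CPM. Its log2 fold change was -0.56 with A. faecalis (adjusted p = 0.687) and -0.95 with S. aureus (0.0846 by edgeR, 0.0306 by DESeq2, and 0.0424 by edgeR without vehicle replicate 4) against vehicle. Without vehicle replicate 3 these 2 values were -0.08 and -0.48. Timp4 fell with S. aureus (log2 fold change -2.64, adjusted p = 0.035 by edgeR), with 9.37 ± 3.79 CPM against 58.2 ± 68.8 CPM with vehicle, and that vehicle mean also rested on replicate 3, at 161 CPM. Without that library the log2 fold change was -1.35 (adjusted p = 0.0336), and leaving out A. faecalis replicate 3 or one of S. aureus 2, 3 and 4 ended the call (largest adjusted p 0.112), as did limma-voom (0.082), the replicate number as a block (0.0897) and fitting only these 2 groups (0.0986). A. faecalis wounds held 27.4 ± 4.71 CPM of Timp4, without overlap with S. aureus wounds, beside 23.3% of all genes. The log2 fold change between these bacteria was 1.55 (adjusted p = 0.128 by edgeR). It passed in edgeR without vehicle replicate 3 (0.00527) and with only the A. faecalis and S. aureus libraries (0.0046). The summed 6 adipocyte markers were 1721 to 2732 CPM with A. faecalis, 1130 to 1868 CPM in S. aureus wounds and 1642 to 6636 CPM with vehicle. With S. aureus against vehicle 0 of the 6 had a positive log2 fold change (median -1.29), and between A. faecalis and S. aureus 6 had one (median 0.53). Their part in the Timp4 differences was not tested. Furin itself was abundant and uneven, at 417 to 825 CPM with A. faecalis, 453 to 612 CPM in S. aureus wounds and 298 to 1118 CPM with vehicle, and was not called. Frmd8, which stabilises the complex of iRhom and ADAM17, was at 49.7 ± 2.46, 58.1 ± 8.57 and 50.3 ± 8.24 CPM in A. faecalis, S. aureus and vehicle wounds and was not called either.

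The tetraspanins of the TspanC8 group bring ADAM10 to the cell surface. Tspan14 stood at 87.2 ± 5.98 CPM with A. faecalis, 88.0 ± 7.65 CPM in S. aureus wounds and 88.2 ± 10.9 CPM with vehicle. Tspan5 (31.1 to 41.7 CPM over the 12 libraries), Tspan15 (27.2 to 46.1 CPM) and Tspan17 (14.6 to 37.8 CPM) were not called in any comparison, and Tspan10 was at no more than 0.285 CPM in any library. Tspan33 was higher in A. faecalis than in S. aureus wounds, at 5.14 ± 0.254 CPM and 3.88 ± 0.304 CPM, with 5.07 ± 0.657 CPM in vehicle wounds. The log2 fold change of A. faecalis over S. aureus was 0.40 (adjusted p = 0.0499 by edgeR). It was lost in 14 of 20 alternatives, among them each library left out except vehicle replicates 3 and 4 (adjusted p up to 0.132).

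Of 17 other ADAM genes 11 passed the filter, and 0 were called in any comparison by edgeR, in any of its alternatives, or by DESeq2 or limma-voom. An unadjusted p under 0.05 was found in 0 of them for A. faecalis against vehicle, 1 for S. aureus against vehicle and 2 between A. faecalis and S. aureus. Over all genes these shares were 7.68%, 27.0% and 28.2%. Adam2, Adam21, Adam30 and Adam32 averaged at most 0.413 CPM in any group, and Adam1a and Adam4 at most 2.69 CPM. With so few genes, several of them at such low levels, the counts do not tell the list apart from all genes. Adam23, which has no protease activity and binds integrins, stood at 90.0 ± 18.3 CPM with A. faecalis, 70.01 ± 7.88 CPM in S. aureus wounds and 86.2 ± 25.1 CPM with vehicle. The 11 had a median log2 fold change of -0.04, -0.34 and 0.32 in the comparisons of A. faecalis with vehicle, S. aureus with vehicle, and A. faecalis with S. aureus. Adam33, Adam22, Adam11 and Adam28 stayed at or under 15.6 CPM in each library.

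Among proteins that these enzymes release, the 7 EGF receptor ligands had medians of -0.70 with A. faecalis against vehicle, 0.48 with S. aureus against vehicle and -0.60 between A. faecalis and S. aureus. Hbegf, Tgfa and Areg were lower in A. faecalis than in S. aureus wounds, beside 7.62% of all genes (log2 fold changes -1.72, -1.70 and -1.23, adjusted p = 0.000592, 0.00131 and 0.00147 by edgeR). Hbegf rose with S. aureus against vehicle, beside 3.87% of all genes (0.82, adjusted p = 0.0164 by edgeR, but 0.0585 without S. aureus replicate 3 and 0.0566 with only these 2 groups). In that comparison 4 of the 7 ligands had a positive log2 fold change, Hbegf, Tgfa, Areg and Ereg. Those with an unadjusted p under 0.05 also numbered 4, beside 27.0% of all genes, but were not the same 4. They were Hbegf, Tgfa and Areg, which were higher, and Egf, which was lower (-1.03, adjusted p = 0.0801 by edgeR). DESeq2 called 4 there, among them Tgfa (0.73, adjusted p = 0.0152) and Areg (0.49, 0.0362), and limma-voom called 1. Over the whole table DESeq2 called 2853 genes there, limma-voom 1278 and edgeR 1246. For A. faecalis against vehicle edgeR called 0 ligands, beside 0.011% of all genes, and limma-voom 0. An unadjusted p under 0.05 was found for 3, beside 7.68% of all genes. DESeq2 called 3, Hbegf, Tgfa and Areg, all lower, and 121 genes over the whole table. The summed 8 keratinocyte markers were 898 to 1524 CPM with A. faecalis, 1161 to 3059 CPM in S. aureus wounds and 1646 to 2502 CPM with vehicle. Of these 8 markers 0 had a positive log2 fold change with A. faecalis against vehicle (median -0.57, 0 called by edgeR). With S. aureus against vehicle 1 had one (median -0.19), and 1 was called lower, beside 2.97% of all genes. Between A. faecalis and S. aureus their median was -0.40, with 1 called higher, beside 5.06% of all genes. The part of keratinocytes in the ligands' levels was not tested. Ereg, at 13.7 to 20.7 CPM with A. faecalis, 21.5 to 27.8 CPM in S. aureus wounds and 10.1 to 30.7 CPM with vehicle, was not called by edgeR, nor were Epgn, Btc and Egf, which stood at 0.708 to 16.9 CPM. The list of 37 other shed surface proteins had 7 higher and 1 lower with S. aureus against vehicle, beside 3.87% and 2.97% of all genes. It had 4 higher and 5 lower between A. faecalis and S. aureus, beside 5.06% and 7.62%. Between A. faecalis and vehicle 0 were called by edgeR, DESeq2 or limma-voom, and 8 had an unadjusted p under 0.05, beside 7.68% of all genes. Without vehicle replicate 3 these counts were 4 higher and 3 lower, 6 higher and 8 lower, and none. The calls over the whole table moved as well, to 973, 3457 and 3 in that fit, from 1246, 2310 and 2 with all libraries.

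Selp, the P-selectin of platelets and endothelium, was at 39.2 ± 2.83, 105 ± 17.9 and 36.9 ± 10 CPM in A. faecalis, S. aureus and vehicle wounds (SD, n = 4), with log2 fold changes of 1.51 for S. aureus against vehicle (adjusted p = 0.00332 by edgeR) and -1.42 between A. faecalis and S. aureus (0.00104). The summed 6 endothelial markers were 917 to 1267 CPM with A. faecalis, 1317 to 1489 CPM in S. aureus wounds and 823 to 1172 CPM with vehicle, and their part in this was not tested. Tnfrsf1a, the broadly expressed receptor of tumour necrosis factor, was at 242 ± 4.67 CPM with A. faecalis, 301 ± 8.32 CPM in S. aureus wounds and 230 ± 14.7 CPM with vehicle. The log2 fold change of Tnfrsf1a was 0.39 for S. aureus against vehicle (adjusted p = 0.0127 by edgeR, but 0.055 with only these 2 groups) and -0.31 between A. faecalis and S. aureus (0.0138). Without vehicle replicate 3 the calls of Selp, Tnfrsf1a and Hbegf against vehicle held (adjusted p = 0.00649, 0.018 and 0.0275).

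Pvr, the poliovirus receptor of epithelium and endothelium, stood at 39.97 ± 2.25 CPM with A. faecalis, 55.1 ± 4.55 CPM in S. aureus wounds and 42.6 ± 5.11 CPM with vehicle. It was lower with A. faecalis than with S. aureus (log2 fold change -0.46, adjusted p = 0.00928 by edgeR). It rose with S. aureus against vehicle (0.37, adjusted p = 0.0395), a call lost in 12 of 20 alternatives (adjusted p up to 0.111). Among these were the fits without vehicle replicates 1, 3 or 4, A. faecalis replicates 3 or 4, or S. aureus replicates 2, 3 or 4, with 0.33 (adjusted p = 0.0657) without vehicle replicate 3.

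Mertk and Csf1r, both of macrophages, went the other way beside the macrophage marker sums given above. Mertk, a receptor for the uptake of dead cells, was at 97.5 ± 8.38 CPM with A. faecalis, 58.0 ± 4.49 CPM in S. aureus wounds and 80.5 ± 10.5 CPM with vehicle. It fell with S. aureus against vehicle (log2 fold change -0.47, adjusted p = 0.0241 by edgeR, up to 0.0653 without vehicle replicates 1 or 2 or S. aureus replicates 2, 3 or 4, and 0.0598 with only these 2 groups). Without vehicle replicate 3 the fall was -0.50 (adjusted p = 0.0252 by edgeR). Mertk was higher with A. faecalis than with S. aureus (0.75, adjusted p = 0.00162 by edgeR). Csf1r, the receptor of macrophage growth factor, was at 828 ± 171, 422 ± 24.2 and 611 ± 124 CPM in A. faecalis, S. aureus and vehicle wounds, and was called between A. faecalis and S. aureus (0.97, adjusted p = 0.00415). With S. aureus against vehicle its log2 fold change was -0.53 (adjusted p = 0.0705 by edgeR). It passed there under DESeq2 (0.0288) and in edgeR without vehicle replicate 3 (-0.62, adjusted p = 0.0429). Tnf itself, taken for its role after its values were seen, was at 115 ± 54.6 CPM with A. faecalis, 36.3 ± 15.7 CPM in S. aureus wounds and 75.8 ± 52.6 CPM with vehicle. Tnf had a log2 fold change of 1.67 between A. faecalis and S. aureus (adjusted p = 0.0709 by edgeR), and it passed under DESeq2, without vehicle replicate 3, and with only the 8 libraries of that pair (adjusted p from 0.0121 to 0.0199).

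**Figure D4:**
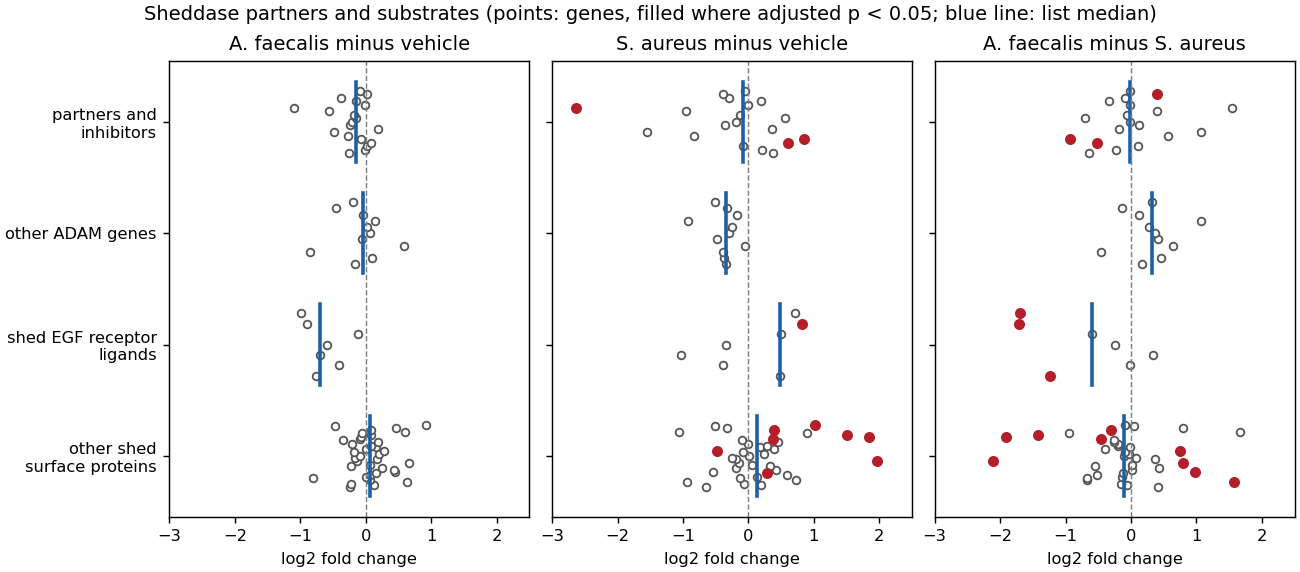
Log2 fold change (horizontal axis, the same scale in each panel) of every tested gene of the 4 lists of partners, other ADAM genes and shed proteins in the 3 comparisons; filled points have an adjusted p under 0.05 and blue lines are list medians. No point is filled for A. faecalis minus vehicle, and the ligands' median lies at -0.70 there and at 0.48 for S. aureus minus vehicle.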

How the data were processed

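The authors deposited a table of estimated counts per gene for 12 libraries, 1 per mouse, not normalized; the submitters' processing notes name kallisto 0.48.0, FastQC 0.12.1, R 4.1.3, DESeq2 1.34.0 and build GRCm39 without roles. Per the labels' protocols, libraries were stranded total RNA after removal of ribosomal RNA. How transcripts were summed to genes is not stated in those notes or the labels, and kallisto divides reads shared by similar transcripts.

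The 1 row without a gene name (0.00909% to 0.0151% of a library) was left out. Counts were rounded and tested in edgeR 4.0.16 (R 4.3.3): TMM scaling, filterByExpr (minimum count 10, minimum total 15), all 12 libraries with 1 mean per group, robust two-sided quasi-likelihood test, Benjamini-Hochberg adjustment over 18218 genes, threshold 0.05. Intervals are 95% from the fitted SE. Alternatives used DESeq2 1.42.0, limma-voom 3.58.1, other scalings and filters, only the 2 groups compared, a block for the replicate number, and leaving out single libraries. The test was tried on simulated data first. Replicates within a group differed by a chi-square of 28 to 460 per degree of freedom, so none was counted as a duplicate.

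The members and lists were chosen with earlier results of these data known. All 9 members were named. Of the 4 lists, up to 4 called genes per comparison, Timp3, Furin, Frmd8, the TspanC8 genes and the EGF receptor ligands were named, except 1 gene that is not reported here. Of 81 list and 62 marker symbols, all were found, 2 under an older name (Nrd1 for nardilysin, Emr1 for adhesion receptor E1). Trac was at 0 in 6 libraries and Plin1 in 1. Summed markers of the remaining lists ran from 12.6 to 24.9 CPM over all libraries for T lymphocytes, 596 to 898 for skeletal muscle, and 823 to 1489 for endothelium.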

Additional observations from a re-analysis of the deposited data

Results flagged for a closer look

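Of 39 groups of 4 libraries screened for a value far from the other 3, 3 stood out, where chance gives about 1 in 20. Vehicle replicate 3 had the highest Rhbdf1 of its group, 63.0 CPM, and the next vehicle library stood at 43.0 CPM. The same library had 375 CPM of Adam8 per 1000 CPM of summed neutrophil markers, with the next vehicle library at 102. A. faecalis replicate 1 had 25.8 CPM of Adam17 per 1000 CPM of summed monocyte and macrophage markers, the lowest of its group, and the next stood at 32.7.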

How the results depend on the processing

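With 4 mice a group, small changes could be missed, and the vehicle libraries were the most uneven. Members called for S. aureus against vehicle numbered 1 in edgeR on all libraries, 0 with only the 2 groups, 3 under DESeq2 (Adam8, Adam12, Adam19), 2 under limma-voom (Adam8, Adam19) and 0 to 2 with 1 library left out. For A. faecalis against S. aureus the 3 members became 4 with only the 2 groups or DESeq2, Adam12 being added, and 2 to 3 with 1 library left out. For A. faecalis against vehicle 0 were called in each of the 20 alternatives. Over the whole table, A. faecalis against vehicle gave 2 calls, 121 under DESeq2 and 2 to 10 with 1 library left out (10 without vehicle replicate 2). S. aureus against vehicle gave 1246, 350 with only the 2 groups, 2853 under DESeq2 and 260 to 1750 with 1 library left out (260 without S. aureus replicate 3, 1750 without vehicle replicate 4). A. faecalis against S. aureus gave 2310, and 1313 to 3457 with 1 library left out (1313 without S. aureus replicate 3, 3457 without vehicle replicate 3). The cause of these differences was not tested.

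Uncalled members changed sign with 1 library left out: Adam12 for A. faecalis against vehicle (-0.030 to 0.15), Rhbdf1 for S. aureus against vehicle (-0.24 to 0.025) and Adam17 between A. faecalis and S. aureus (-0.066 to 0.21). Replicate numbers were not treated as pairs in the main fit. Of 12 pairs of groups and numbers, 3 had a correlation of deviations over 0.1 (range -0.21 to 0.18). All of these were between A. faecalis and vehicle, for numbers 2, 3 and 4 (0.18, 0.15 and 0.17). The own number correlated best in 4 of 24 comparisons of a library with another group. With a replicate block, S. aureus against vehicle called 1 member, Adam8 (1.44, adjusted p = 0.0363 by edgeR) in place of Adam19 (0.59, adjusted p = 0.0522), and 1038 genes in all. With the median coding transcript as length, chosen after seeing the data, Adam10 stood at 89.1, Adam12 at 103 and Rhbdf1 at 69.6 CPM per kb, so the order of levels per length depends on it. Counts by list and partners' fold changes under these settings were also added after seeing the data.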
